A study of Mus musculus with 6 samples.

Results

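The fibroblast growth factor (FGF) and platelet-derived growth factor (PDGF) genes were examined in RPE/choroid, the retinal pigment epithelium of the mouse eye together with the vascular layer beneath it. The genes were taken by symbol: FGF ligands, FGF receptors and FGF binding proteins, the PDGF ligands, Pdgfra and Pdgfrl, the Sprouty genes Spry1, Spry2 and Spry4, and the klotho genes Kl and Klb. This took 42 rows of the 33924 in the table, and 29 of them reached the minimum set here, a normalized count of 10 averaged over the libraries (the mean count below). These 29 are the members, and genes at or above the minimum, 18479 in all, are referred to as measured. Pdgfrb was not among the symbols taken and is given beside Pdgfra where a reader needs it.

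The samples were 3 young mice labelled 1 to 2 months and 3 aged mice of 20 to 24 months by their titles, or 22 to 24 months by their time field. All were C57BL/6J, and the labels name no transgene or treatment. The labels call the mice male, whereas the study's methods describe animals of both sexes and a somewhat older range for the young group, with the 2 eyes of a mouse in a sample. RNA was labelled as poly(A) RNA, and the protocol in the labels adds removal of ribosomal RNA. The deposited table has 1 value per gene that can be used here, the normalized count averaged over libraries of both ages, so every value below is a pooled level with no SD and no test, and no difference between young and aged mice is given. Sequencing depth of single libraries is unknown.

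FGFs are secreted proteins that bind tyrosine kinase receptors together with heparan sulfate, and the receptors signal through RAS and the MAP kinases. The FGF7 subfamily acts from mesenchyme on the epithelial splice forms of FGFR2, endocrine FGFs need a klotho as coreceptor, and FGF11 to FGF14 stay inside the cell, where they bind voltage-gated sodium channels. PDGFs act as dimers on the receptors encoded by Pdgfra and Pdgfrb, which are known from fibroblasts and from pericytes and smooth muscle, respectively. In the eye FGFs take part in the patterning of neural retina and RPE, and PDGF-B recruits pericytes to vessels.

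Genes were compared by level, which is the mean count per kilobase of the longest annotated transcript. The median level was 213 over 17978 measured genes with a gene model and 235 over the 29 members. Of the members, 15 (51.7%) lay above the median of all measured genes, 6 above the 75th percentile (668) and 0 above the 95th percentile (3843), whereas 7 lay below the 25th percentile (53.8). The members were therefore spread over most of the range, from 2.07 for Kl to 1385 for Fgfr2, and stopped short of its top. With coding length 19 of the 29 members were above the median of all genes (529), and with merged exons 17 were (median 163). Without division by length 15 members were above the median of measured genes, a mean count of 694. That form is given beside the ratios below because the counts may already be corrected for length. Together they held 0.0895% of the summed mean normalized counts of 40816668.

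**Figure D1:**
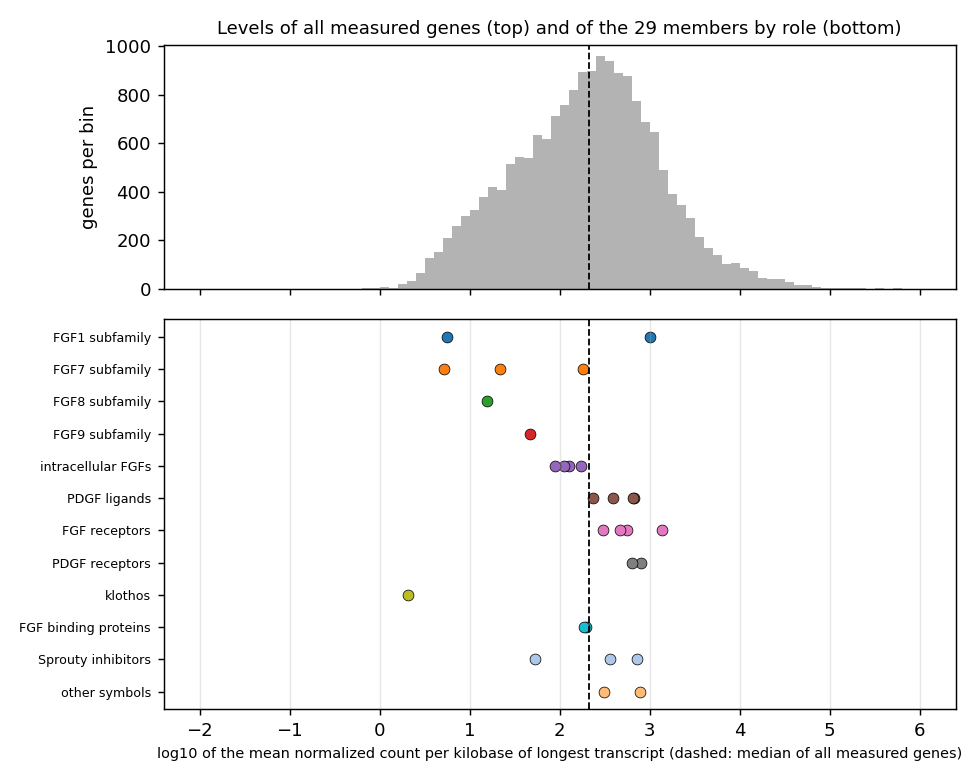
The histogram gives the number of genes per bin of log10 level (mean normalized count per kilobase of longest transcript), and the points give the 29 members by role on the same axis. The dashed line is the median of all measured genes, 213, with 15 members to its right and Kl, Fgf3 and Fgf2 at the far left.

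The tissue was checked against marker genes. All 8 RPE markers were measured, with levels from 39.3 for Best1 to 335233 for Ttr and a median of 34564. Markers of other cells were also present in the pooled libraries, although the protocol in the labels describes removal of muscle and neural retina. The median level was 20416 over 8 skeletal muscle genes, 16166 over 8 melanocyte genes, of which pigment genes are shared with RPE, 6565 over 8 rod genes, 5291 over 8 genes of astrocytes and Mueller glia, 3729 over 8 fibroblast genes and 2493 over the 7 of 8 macrophage genes in the table. It was 913 over 8 endothelial genes, 742 over 8 genes of pericytes and smooth muscle and 304 over the 7 of 8 Schwann cell genes in the table. These medians were not computed without division by length, so their order holds for levels only. The fibroblast list holds Pdgfra itself, the mural list holds Pdgfrb, and Rlbp1 is in both the RPE and the glial list. No marker in the table was at 0. The part of these cells in the levels below was not tested. Which cells carried the FGF and PDGF transcripts cannot be told from bulk RNA, nor can many cells with little of a transcript be told from few cells with much of it.

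FGF receptors were led by Fgfr2, which had the highest level of the members by transcript length. It had a mean count of 6134 and a level of 1385, at percentile 86.8 of all measured genes. The gene model used for Fgfr2 (ENSMUSG00000030849) is on the minus strand of chromosome 7 in GRCm38 (130162451 to 133123350). That gene model shares 314 exon bases (3.04% of its own) with Ctbp2 on the same strand. Strand therefore cannot assign the reads there. Among the receptors with a kinase domain, Fgfr3 (level 475) and Fgfr1 (level 303) followed. The level of Fgfr2 was 2.92 times that of Fgfr3 and 4.58 times that of Fgfr1. Both ratios stayed above 2 with lengths of coding sequence or of merged exons, at 2.91 and 2.11 for Fgfr3 and 3.99 and 3.84 for Fgfr1, and were 3.05 and 4.02 without division by length. Fgfr4 had a mean count of 8.67 and fell below the minimum. Fgfrl1, a receptor-like protein without a kinase domain, had a level of 561. Splice forms of a receptor, such as the epithelial and mesenchymal forms of FGFR2, are not separated in a value per gene.

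Among the secreted FGFs, a single gene held most of the signal. Fgf1, an FGF without a signal peptide that can bind every FGF receptor, had a mean count of 4008 and a level of 1006, at percentile 82.1. This was 78.5% of the summed level of the 7 secreted FGFs that were measured. Its closest relative, Fgf2, had a mean count of 33.4 and a level of 5.60, at percentile 2.75. By coding length Fgf2 was at percentile 17.0, and without division at 10.4. Fgf1 stood 180 times above Fgf2 per kilobase of transcript and 119 times per kilobase of coding length. Per kilobase of merged exons the ratio was 149 times, and without division by length 119.9 times. Fgf1 (ENSMUSG00000036585) lies on chromosome 18 from 38838673 to 38929472, and its longest transcript has 3983 bases of which few code (coding length 465 bases). With coding length in place of transcript length Fgf1 had the highest level of the members (8620, against 2434 for Fgfr2), and with merged exons it was again ahead (734 against 594). Fgfr2 had rank 3 by coding length, where Fgfr1op2 (2944) also came before it, and rank 4 by merged exons, where Spry2 (724) and Pdgfd (670) also did. By mean count without division it again came before the others, followed by Pdgfra and Fgf1. The place of Fgfr2 at the top thus depended on the length used. Of the exon bases of Fgf2, 9.44% are shared with Nudt6 on the opposite strand. Reads there can be assigned only with strand. The library kit named in the labels keeps strand, and whether the quantification used it was not stated.

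The FGF7 subfamily, whose products reach epithelia from the stroma, had 3 of 4 genes measured. Fgf7 (keratinocyte growth factor) led with a mean count of 482 and a level of 180, which was 14.1% of the summed level of the secreted FGFs. Fgf10 followed with a mean count of 89.0 and a level of 21.6, and Fgf7 was 8.33 times as high per kilobase and 5.41 times without division. Fgf3 had a mean count of 11.9, which amounts to 71.1 normalized counts summed over 6 libraries, and a level of 5.16. Fgf9, a ligand of the mesenchymal receptor forms, had a mean count of 168 and a level of 46.8, and Fgf18, known from bone and lung, had 16.9 and 15.6. Fgf18 was at percentile 10.2 of measured genes, Fgf9 at 22.9 and Fgf7 at 46.4. By coding length Fgf7 was on the other side of the median, with 828 against a median of 529.

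Of the 18 secreted FGF genes 11 did not reach a mean count of 10. None of the 3 genes of the FGF4 subfamily (Fgf4 at 1.34, Fgf5 at 4.0, Fgf6 at 0.673) and none of the 3 endocrine FGFs (Fgf15 at 0.161, Fgf21 at 1.92, Fgf23 at 1.48) did. The other 5 were Fgf8 (1.17), Fgf17 (6.45), Fgf16 (9.11), Fgf22 (7.25) and Fgf20, which was listed at 0. The klothos were at the same low end, with Kl, the coreceptor for FGF23, at a mean count of 12.0 and a level of 2.07, the lowest level of the members at percentile 0.197 (Fgf3 was lower by mean count), and Klb, the coreceptor for FGF21 and FGF15, at 7.21. At the minimum of 10, Fgf3 (11.9) and Kl (12.0) were just inside and Fgf16 (9.11) and Fgfr4 (8.67) just outside, so these 4 genes differ in membership more than in level.

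All 4 intracellular FGFs were measured, and they lay close together. Fgf11 had a level of 174, Fgf12 of 126, Fgf13 of 112 and Fgf14 of 89.3, a range of 1.95 times from the lowest to the highest. Their mean counts were 528, 522, 280 and 322. These genes are known from neurons and muscle, and their percentiles among measured genes were 32.8 to 45.6 by transcript length and 43.0 to 58.9 by coding length. With coding length Fgf14 (426) came before Fgf13 (380), and with merged exons likewise (77.0 and 69.6), so the order of this pair is not settled.

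PDGF ligands, unlike the secreted FGFs, were all measured, and all 4 were above the median of measured genes. Pdgfd, whose product acts mainly on PDGFRB, had a mean count of 2115 and a level of 675. Pdgfa, a ligand of PDGFRA, had 1345 and 653. Pdgfb, known from endothelium, had 1143 and 388, and Pdgfc had 829 and 235. The summed level of the 4 was 1952, of which Pdgfd held 34.6%, Pdgfa 33.4%, Pdgfb 19.9% and Pdgfc 12.1%. Pdgfd and Pdgfa were within 1.12 times of each other by transcript and by coding length, with Pdgfa ahead by coding length (ratio of Pdgfa to Pdgfd 1.12, against 0.967 by transcript, 0.643 by merged exons and 0.636 without division). Pdgfc was the lowest of the 4 with each length and without division. An antisense gene, 6330403L08Rik, shares 26.1% of the exon bases of Pdgfa, and unnamed gene models on the opposite strand share 24.4% of those of Spry1 and 13.9% of those of Fgfr3, so their values carry the same doubt about strand.

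Pdgfra, a receptor that marks fibroblasts, had a mean count of 5456 and a level of 798, at percentile 78.3. Pdgfrb, its partner on mural cells, had a mean count of 4544 and a level of 838. The ratio of Pdgfra to Pdgfrb was 0.953 by transcript length, 1.22 by coding length, 0.656 by merged exons and 1.20 without division, so neither can be placed above the other. Pdgfrl, a receptor-like protein without a kinase domain, had a mean count of 1312 and a level of 634. Over the 6 measured receptors of both families the median level was 598, and over the 11 measured secreted ligands it was 180. By coding length these medians were 1002 and 801, and with no minimum the median of the ligands was 5.35. The summed level of the receptors was 1.29 times that of the ligands, but 0.985 times with merged exons and 0.460 times with coding length. Without division by length it was 1.73 times.

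**Figure D2:**
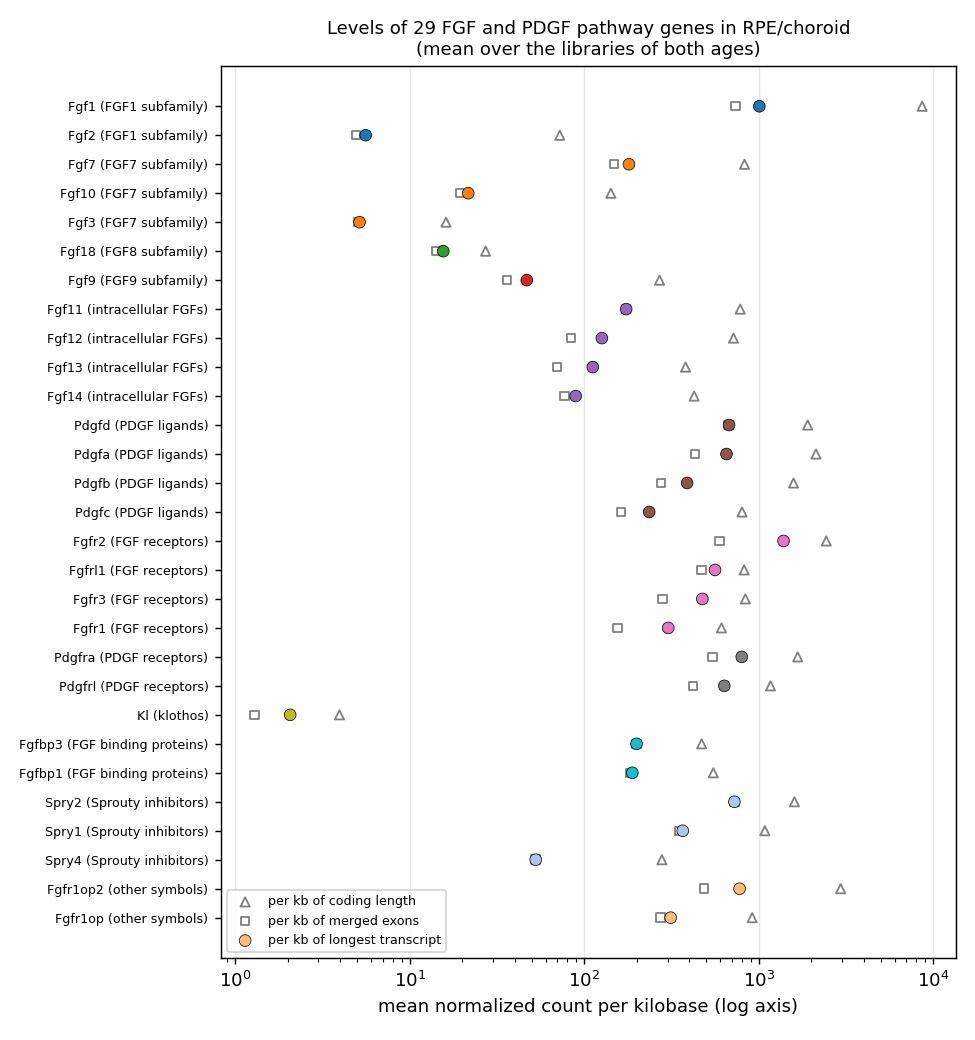
Each line is a member, grouped by role, and the log axis gives its mean normalized count per kilobase. Filled points use the longest transcript, triangles the coding length and squares the merged exons, and the gap between the symbols of Fgf1 and of Fgf2 is the widest.

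The binding proteins, secreted carriers that release FGFs from heparan sulfate, had nearly equal levels, 199 for Fgfbp3 and 188 for Fgfbp1. The Sprouty genes, feedback inhibitors of receptor tyrosine kinase signaling, did not. Spry2 had a mean count of 1512 and a level of 724, Spry1 had 1017 and 367, and Spry4 had 251 and 52.7. Spry2 was 1.98 times as high as Spry1, or 1.48 times by coding length and 1.49 times without division. It was 13.7 times as high as Spry4, or 5.75 times by coding length and 6.03 times without division. The symbol rule also took Fgfr1op (level 313) and Fgfr1op2 (level 776), which are named for fusions with FGFR1 in leukemia. Fgfr1op encodes a centrosomal protein, and neither gene is a receptor or ligand. They are left out of the medians and summed levels of receptors and ligands, but they count among the 29 members and so in the 0.0895%, in the 15 above the median and, for Fgfr1op2, in the 6 above the 75th percentile.

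Other genes of the pathways were taken from lists. The heparan sulfate core proteins, which hold FGFs at the cell surface and in matrix, were the most abundant list. By level 10 of 10 were above the median of measured genes. Their median level was 1048, with a range from 242 for Gpc4 to 5153 for Sdc4. Without division by length Gpc4 (mean count 641) was below the median of measured genes (694). The 10 genes that build or edit heparan sulfate had a median level of 203, with Sulf1, an extracellular sulfatase that removes sulfate groups needed by FGFs, highest at 2123 and Hs6st2 lowest at 109. Its relative Sulf2 had a level of 122. Without division by length Hs3st1 (mean count 206) was the lowest of these genes, and Hs6st2 had 473. Among 14 adapters and relay genes, 10 were above the median of measured genes by level. Without division by length Braf (mean count 1558) and Sos1 (765) were also above the median. Map2k1 led with a level of 2957, and the docking protein gene Frs2, which couples FGF receptors to RAS, was lowest at 62.0. By mean count Frs3 (216) was lowest instead, below Frs2 (398). Hras was not a row of the table. The 14 feedback inhibitors and target genes in the table had a median level of 129. Dusp6, a phosphatase that acts on ERK and a known target of FGF signaling, was highest at 2848, Spred2 was lowest at 28.9, and the ETS factor genes Etv5, Etv4 and Etv1 had 425, 75.5 and 36.1. By mean count Etv1 (237) came before Etv4 (181). Spry3 was not a row of the table. In the list of PDGF receptor beta and PDGF processing, the 4 genes ran from 126 for Furin to 3028 for Nrp1, with 975 for Plat, whose protease activates PDGF-C.

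**Figure D3:**
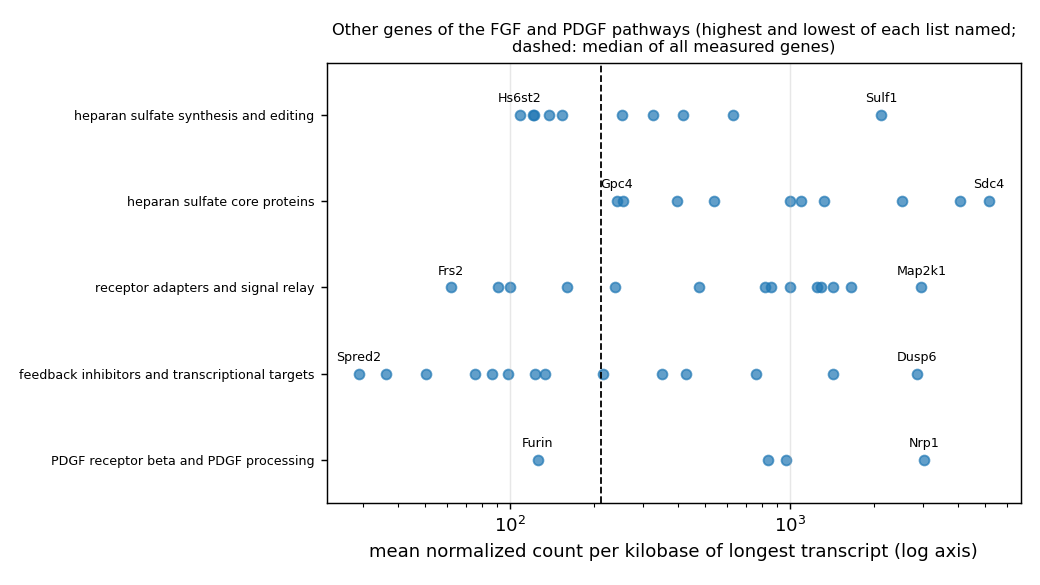
Points are genes of 5 pathway lists on a log axis of mean normalized count per kilobase of longest transcript, with the highest and lowest gene of each list named. On this scale the heparan sulfate core proteins lie wholly to the right of the dashed median of all measured genes (213). Without division by length Gpc4 was below the median.

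The sequence before the start of a gene was examined as a feature that the choice of genes had not used. Of the 42 genes, 31 had RefSeq windows on GRCm38.p6. Windows were kept where the start lay within 100 bases of a GENCODE transcript start, which left 27 genes with 32 windows. Fgfr2, Fgfr4, Fgf11 and Fgf14 had windows only at other starts and were left out. For the members Fgf1, Fgfr1, Pdgfb, Pdgfrl, Spry4 and Fgfr1op no window was found. In the 250 bases before the start, the 25 windows of 20 measured members held a median of 19 CG dinucleotides, against 14 over the windows of all measured genes. The 7 windows of genes below the minimum held a median of 9, against 2 over all genes below it. Windows with many and with few CG were found at both high and low levels. The following 4 windows, picked after their values were seen, show this contrast, with CG in capitals and each read 5′ to 3′ on the strand of the gene. Pdgfra (chr5:75152001-75152250, plus strand, level 798) and Spry2 (chr14:105896820-105897069, minus strand, level 724) are both abundant, with 4 and 23 CG. Fgf18 (chr11:33147401-33147650, minus strand, level 15.6) has 37 at a low level, and Fgf4 (chr7:144861136-144861385, plus strand) has 21 although its mean count was 1.34.
Pdgfra: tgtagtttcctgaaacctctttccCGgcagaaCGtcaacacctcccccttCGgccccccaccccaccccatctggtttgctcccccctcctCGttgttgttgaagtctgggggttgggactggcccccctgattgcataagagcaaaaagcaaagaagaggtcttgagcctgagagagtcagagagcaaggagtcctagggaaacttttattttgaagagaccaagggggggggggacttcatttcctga
Spry2: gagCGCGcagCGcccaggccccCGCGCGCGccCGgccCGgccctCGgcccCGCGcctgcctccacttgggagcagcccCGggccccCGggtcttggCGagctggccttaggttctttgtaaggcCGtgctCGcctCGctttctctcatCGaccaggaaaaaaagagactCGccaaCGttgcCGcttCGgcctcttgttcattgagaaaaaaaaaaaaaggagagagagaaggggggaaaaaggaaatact
Fgf18: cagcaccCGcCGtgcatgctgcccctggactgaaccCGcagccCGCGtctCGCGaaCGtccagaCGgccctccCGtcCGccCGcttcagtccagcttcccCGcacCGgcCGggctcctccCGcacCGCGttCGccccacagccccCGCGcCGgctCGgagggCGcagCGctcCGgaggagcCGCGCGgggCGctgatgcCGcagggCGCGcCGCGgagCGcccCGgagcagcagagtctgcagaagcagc
Fgf4: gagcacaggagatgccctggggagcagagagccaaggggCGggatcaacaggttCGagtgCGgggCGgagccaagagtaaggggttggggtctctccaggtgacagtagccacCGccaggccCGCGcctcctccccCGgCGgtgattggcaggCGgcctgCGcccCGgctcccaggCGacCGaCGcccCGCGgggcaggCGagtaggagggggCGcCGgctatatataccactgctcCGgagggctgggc

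Spry1 (23 CG) resembled Spry2, while Pdgfd (3 CG) and Pdgfc (3 CG) resembled Pdgfra, and the windows of Pdgfa held 19 and 28. The word GGGCGG, a GC box, searched on both strands, was present in 14 of 25 member windows (56.0%) and in 54.2% of the windows of all measured genes. TATAAA, likewise on both strands, was present in 2 of 25 (8.0%, Pdgfd and Fgfbp3) and in 7.18%. CCAAT, searched in the same way, was present in 8 of 25 (32%) and in 35.2%. These 25 windows come from 20 genes. The 2 windows of Fgfr1op2 overlap almost wholly, and each holds GGGCGG and CCAAT. In the 7 windows of genes below the minimum, GGGCGG was present in 5 (71.4%), against 13.6% of the windows of all genes below it.

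**Figure D4:**
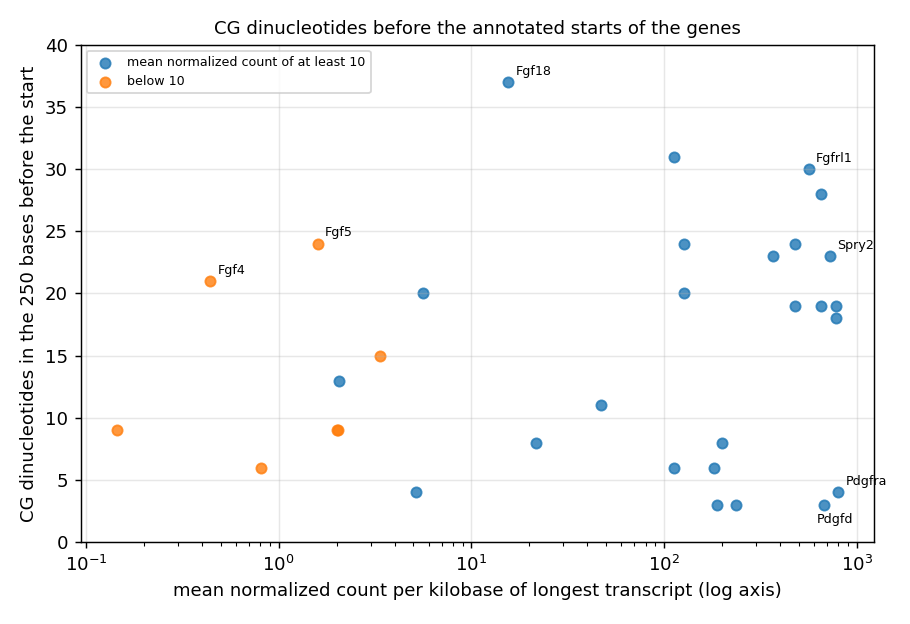
Each point is a RefSeq window of a gene of the family, with its level on the log axis and the number of CG dinucleotides in the 250 bases before the start on the vertical axis. Blue windows belong to genes with a mean count of at least 10, orange ones to genes below it. Fgf18 has the most CG (37) at a level of 15.6, and Pdgfra and Pdgfd have 4 and 3 at levels of 798 and 675.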

How the data were processed

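Poly(A) RNA of RPE/choroid was sequenced in 3 young and 3 aged mice. After read trimming by BBDuk, the authors used STAR with Ensembl transcripts of GRCm38, quantified abundance as TPM with Sailfish, turned these into normalized counts by total count and ran DESeq2. TPM is already divided by transcript length, and whether that division was undone is not stated, so dividing by length here may correct for it a second time. Ratios without the division were therefore added after seeing the data. The deposited signal used here is the authors' mean normalized count per gene, which by the layout of a DESeq2 table is averaged over all 6 libraries; whether it rests on total counts or on size factors was not stated. The remaining 5 columns hold the authors' own comparison of the ages (a fold change, its standard error, a test statistic and p-values) and were not used, so no age effect was computed. The planned test of young against aged needed values per library and was not made. No column of values per sample was left unused (0).

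Levels are means per kilobase of the longest transcript in GENCODE release 21 for mouse (GRCm38), matched by symbol or synonym for 97.3% of the genes with a mean of at least 10. That release is not the authors' annotation, and estimated counts over transcripts of other lengths would shift a level. Every member was named, with the highest and lowest gene of each pathway list, and genes named beyond this were picked after their values were seen. The rule on promoter starts was added after seeing the data. Members and lists were chosen with earlier results of these data known. Alternatives were coding length, merged exons, other minimums and no minimum. The planned alignment of proteins was not run. The length step was checked on a made-up gene model and the percentile step on a small set of known values. A further check on simulated levels multiplied and divided by the same length, so it could not fail. Python 3.11.15, numpy 2.4.6, pandas 2.3.3 and matplotlib 3.10.9 were used.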

Additional observations from a re-analysis of the deposited data

How the results depend on the processing

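The number of members was 34 with a minimum of 5 and 25 with a minimum of 50. With coding length in place of the longest transcript, the median level was 801 over the secreted ligands and 1002 over the receptors, and the ratio of summed levels, receptors over ligands, was 0.460. Coding lengths are shorter, so levels rise by construction, most in genes with long noncoding ends. With merged exons the same values were 148, 445 and 0.985. With no minimum the median of the secreted ligands was 5.35, since 11 rows of low mean enter by construction. With Pdgfrb among the receptors, chosen after seeing the data, the ratio was 1.54, and without division by length, also chosen then, it was 1.73. Of the 29 members, 28 moved by more than 1.5 times with coding length and 8 with merged exons. The 10 highest members shared 8 genes and 9 genes, respectively, with the 10 highest by longest transcript.

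No paired analysis was possible because only a pooled mean of each gene was used. Leaving out each replicate, another normalization and a filter on counts per library were not run, and the precision of each level is unknown.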
